A study of Mus musculus with 25 samples.

Results

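The protocadherin and cadherin genes of the mouse were followed through 3 RNA-seq experiments on neuronal nuclei of the hippocampus. They were chosen by name, as every gene whose symbol begins with Pcdh or consists of Cdh and a number, and 94 of the 24411 genes in each table met this. Of these 94, 59 are clustered protocadherins (15 Pcdha, 22 Pcdhb and 22 Pcdhg genes), 12 are non-clustered protocadherins and 23 are cadherins. A gene was tested where its mean normalized count over the libraries of an experiment was at least 10, which kept 85 of the 94 in the aging experiment, 86 in the overexpression experiment and 3 in the knockdown experiment.

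Cadherins are membrane proteins that bind one another across the gap between cells in a calcium-dependent way, and inside the cell the classical cadherins are tied to actin by catenins. Protocadherins form the largest branch of the superfamily in the brain. Each neuron uses its own small set of the clustered genes, chosen promoter by promoter with the help of CTCF and cohesin, and this set gives the neuron a surface identity by which its branches recognise and avoid each other. Non-clustered protocadherins and type II cadherins are used by whole groups of neurons and mark cell types and connections in the hippocampus.

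Nuclei that carried the neuronal antigen NeuN were sorted from hippocampi of male C57BL/6 mice and their RNA was sequenced, which gave 25 libraries. The aging experiment compared 3 young (3 months) and 2 aged (18 months) wild-type libraries. The overexpression experiment compared 5 control libraries with 7 libraries labelled Ftl1 OE from young mice, injected into CA1 and dentate gyrus with lentivirus that carried eGFP alone or Ftl1 with eGFP under the neuronal synapsin-1 promoter. The knockdown experiment compared 4 control libraries with 4 libraries labelled Ftl1 KD, all of aged mice (18 months) whose virus encoded a short hairpin RNA against luciferase or against Ftl1. Nuclei were sorted on NeuN and not on the virus, so that each infected sample can hold nuclei with and without it. Ftl1 itself, ferritin light chain 1, was not higher in the libraries labelled Ftl1 OE (log2 fold change −0.67, SE 0.34, adjusted p = 0.681 in limma) and went against the label in those labelled Ftl1 KD (1.47, SE 0.25, adjusted p = 0.000223). Its normalized count was 4580 to 28309 in the control and 4737 to 7663 in the libraries labelled Ftl1 OE, and in the knockdown experiment it was 24.2 to 56.2 in control libraries but 106 to 140 in labelled ones.

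The libraries held 7969282 to 9537872 reads in the aging, 9943996 to 17034325 in the overexpression and 48902 to 358560 in the knockdown experiment. Neuronal markers were read in every library, and markers of glia were too. Each table was normalized on its own by the authors, so that a normalized count, the reads of a gene after scaling for library size, can be compared within an experiment only. Fold changes are on the log2(normalized count + 1) scale, with the standard error (SE) of limma. Adjusted p-values are those of Benjamini and Hochberg over all genes tested. In bulk nuclei, fewer cells of a type and less RNA per cell cannot be told apart.

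The clustered genes lie on chromosome 18 in mm10. Leaving out Pcdha7-g, which RefSeq lists as Gm38667 from 36973802 to 37841873, a stretch that takes in all of Pcdhb and Pcdhg, the other 58 lie in a row, and the Pcdha genes take up 36930285 to 37188897, the Pcdhb genes 37264998 to 37521419 and the Pcdhg genes 37661775 to 37841873. Each Pcdhb gene is a single exon, and Pcdhb21 and Pcdhb22 overlap by 455 bases in their longest annotated transcripts. Pcdha and Pcdhg genes each have a first exon of their own that is spliced to constant exons at the end of the cluster, and in the longest annotated transcripts the bases shared with another member were 48.6% to 54.9% of a Pcdha gene and up to 45.9% of a Pcdhg gene. A read from these constant exons does not name its gene and was divided by the authors' quantification, and reads that fit similar stretches of more than 1 Pcdhb gene would be divided as well, so that single values of clustered genes are uncertain.

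Per length, the most abundant member was Pcdh9, a non-clustered protocadherin, in the young wild-type and the overexpression control libraries, and it was also the first of the 3 members that could be ranked in the knockdown control libraries. Its level was 3441 ± 1178 normalized counts per kilobase of transcript (SD, n = 3) in young wild-type libraries, where Pcdh20 came next at 630.3 ± 98.7 and the type II cadherin Cdh8 after it at 566 ± 30.1. The ranges of Pcdh20 (528.1 to 725) and Cdh8 (534.5 to 594.4) overlapped. In the overexpression control libraries, Pcdh9 (612 ± 270, n = 5), Pcdh8 (557 ± 230), Pcdhgc5 (507 ± 130) and Pcdh20 (412 ± 321) followed each other within their spread. Pcdhgc5, a C-type gene, was the most abundant clustered gene per length in both.

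Between young and aged mice, 0 of the 85 members tested passed an adjusted p of 0.05 and a log2 fold change of 0.5 in size in limma, as did 0 (0%) of all 13712 genes. The quasi-likelihood test of edgeR called 0 members as well, and DESeq2 called 2, Pcdhb9 higher and Cdh8 lower, where it called 1.01% of all genes. The paper's own DESeq2 analysis of the same libraries also lists Pcdhb9 among the genes increased with age. At an unadjusted p of 0.05 or less in limma, 8 members were higher and 5 lower with age, beside 2.9% and 5.04% of all genes. With 3 young and 2 aged libraries, 0.1 is the smallest p an exact permutation test can reach.

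As a whole, the clustered genes had more reads in both aged libraries than in any young library. Their summed normalized count was 11198, 11853 and 12027 in young and 15140 and 15630 in aged libraries, a ratio of the means of 1.32. In RPM (reads relative to the library total) the sums did not overlap either, with 1355 to 1428 in young and 1760 to 1784 in aged libraries. The Pcdhb sum was 2752 to 3392 against 4197 to 4722 (ratio 1.44) and the Pcdhg sum 5221 to 5704 against 6930 to 8368 (ratio 1.41), without overlap in either. The Pcdha sum overlapped, with 2585 to 3808 in young and 3065 to 3488 in aged libraries. Taken gene by gene, 36 of 58 clustered genes had a fold change above 0, with a median log2 fold change of 0.17, and 13 of 27 other members did, with a median of −0.085. Over all genes tested, 48.3% lay above 0 and the median was −0.025. The Pcdhg genes had the highest median of the 3 clusters, at 0.34 with 17 of 22 above 0, while the median was 0.06 for Pcdha and 0.009 for Pcdhb. Single libraries moved these medians. The clustered median was 0.42 without aged replicate 2 and 0.59 without aged replicate 3, and that of the other members was 0.39 without aged replicate 2.

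**Figure D1:**
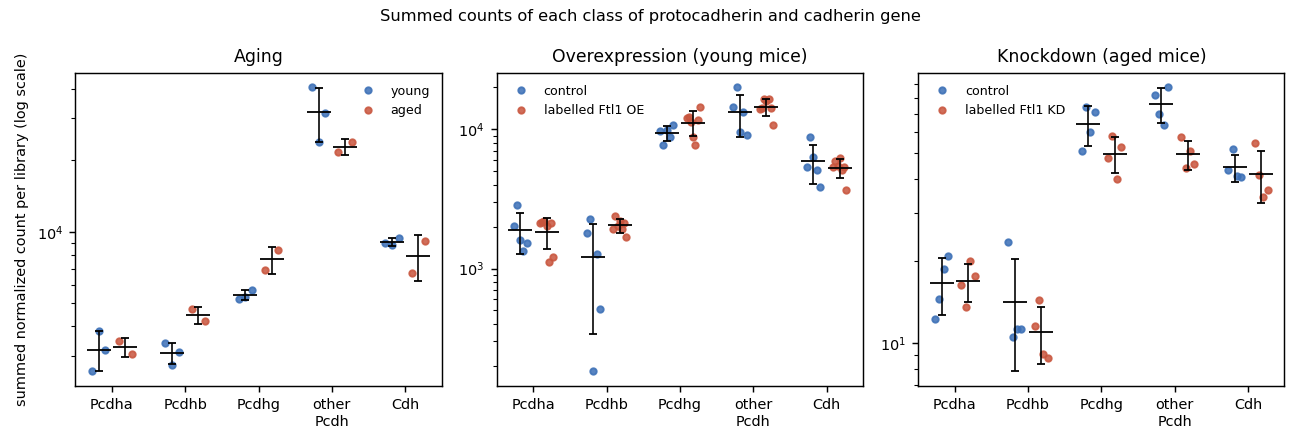
Summed normalized counts (log scale) of Pcdha, Pcdhb, Pcdhg, non-clustered protocadherin (other Pcdh) and cadherin (Cdh) genes. Each point is a library, blue for young or control and red for aged or labelled libraries, and bars give mean ± SD; the Pcdhb sums of the 5 overexpression controls run from 183 to 2267, while those of the 7 libraries labelled Ftl1 OE run from 1691 to 2399.

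The aged and young libraries did not overlap for 16 clustered genes, 13 of them higher and 3 lower with age, and for 11 other members, 5 higher and 6 lower. Of all genes tested, 12.2% were higher and 12.5% lower without overlap. This split is a description of 5 libraries.

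Pcdhb9 (chromosome 18, 37400855 to 37403909), a single-exon gene that shares no annotated base with another Pcdhb gene, had the smallest p of all members. Its normalized count was 247, 151 and 285 in the young and 741 and 585 in the aged libraries, from 142 to 750 reads. Every aged library lay above every young one. The log2 fold change was 1.58 (SE 0.39) with an adjusted p of 0.441 in limma and 0.0326 in DESeq2, and the exact permutation p was 0.1, the smallest these groups allow. It stayed between 1.31 and 1.77 when single libraries were left out.

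Other Pcdhb genes moved in both directions. Pcdhb17 was read at 166, 156 and 288 in young and 402 and 572 in aged libraries, and its log2 fold change was 1.29 (SE 0.42, adjusted p = 0.516 in limma). Pcdhb21 was at 328, 117 and 130 against 579 and 381, with a log2 fold change of 1.45 (SE 0.50). Pcdhb11 went the other way, at 89.2, 92.2 and 95.8 in young and 28.7 and 12.9 in aged libraries, with a log2 fold change of −2.20 (SE 0.77, adjusted p = 0.534 in limma). None of the 3 overlapped between the groups, and none passed the adjusted threshold in limma, edgeR or DESeq2. Pcdhb22, which overlaps Pcdhb21 by 455 bases, was lower with age, at 3.12 to 13.7 RPM in young and 0.23 to 1.78 in aged libraries. The part of divided reads in the values of Pcdhb21 and Pcdhb22 was not tested.

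Pcdha5 had 84, 88 and 117 normalized counts in young and 423 and 201 in aged libraries, with a log2 fold change of 1.60 (SE 0.52, adjusted p = 0.516 in limma). Pcdhgb7 ranged over 129, 43.5 and 2.66 in young and reached 207 and 356 in aged libraries, so that its log2 fold change of 3.30 carried an SE of 1.18. Both belong to the clusters with constant exons. The most abundant Pcdhg genes overlapped between the groups, with Pcdhgc5 at 1226, 2399 and 1855 in young and 1696 and 3452 in aged libraries, and with Pcdhgb1 at 1182, 460 and 1004 against 1354 and 1053.

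**Figure D2:**
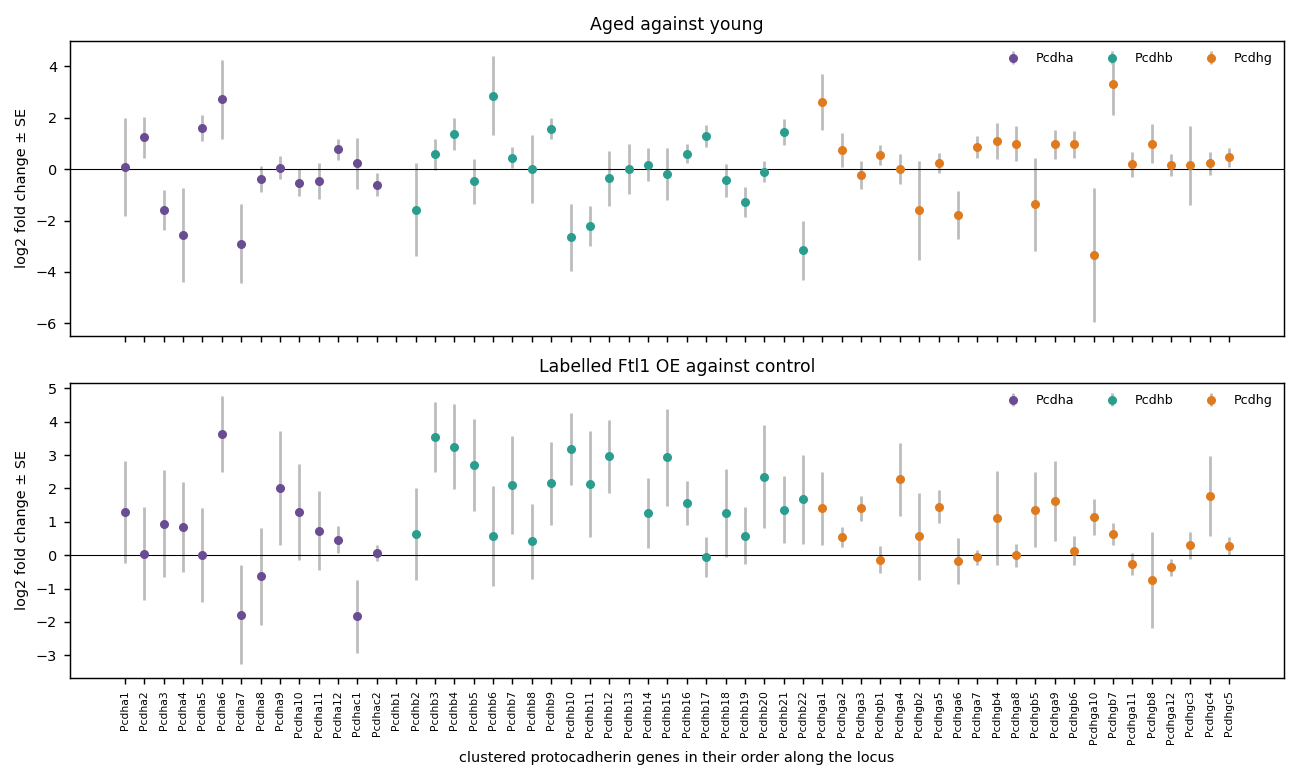
Log2 fold changes of the clustered genes tested (points, with SE as grey bars) in their order along the locus, Pcdha in purple, Pcdhb in green and Pcdhg in orange, for aged against young (top) and labelled Ftl1 OE against control libraries (bottom). With age, genes above and below 0 lie side by side in Pcdha and Pcdhb. In the overexpression experiment 19 of 20 Pcdhb genes lie above 0, with all libraries kept. Of these 20, 16 had 0 reads in control replicate 3 and 9 in control replicate 5.

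Among the non-clustered protocadherins, the 2 most abundant were lower in aged libraries without overlap. Pcdh9 (chromosome 14, 93013700 to 93892834) had 30432, 15119 and 21762 normalized counts in young and 13793 and 14148 in aged libraries. The young libraries differed by more among themselves than the lowest of them did from the aged ones, and the log2 fold change was −0.63 (SE 0.36, adjusted p = 0.666 in limma). Pcdh20 was read at 2768, 3342 and 3800 in young and 859 and 2411 in aged libraries, with a log2 fold change of −1.19 (SE 0.38, adjusted p = 0.516 in limma) that ran from −1.93 to −0.44 as single libraries were left out. Pcdh10, which guides axons, was at 397, 309 and 336 against 443 and 708, a log2 fold change of 0.70 (SE 0.36). Pcdh11x was at 327 to 971 in young and 221 to 423 in aged libraries and Pcdh18 at 17.7 to 102 against 84 to 142, with overlap in both. The summed count of the non-clustered protocadherins was 23942 to 40490 in young and 21594 to 23962 in aged libraries, most of it from Pcdh9.

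Among the cadherins, Cdh8 and Cdh18 were lower in aged libraries and Cdh4 and Cdh20 higher, without overlap. In RPM, Cdh2 (89.5 to 115 in young, 71.5 to 79.5 in aged libraries) was lower without overlap too. The same held for Cdh24 (4.89 to 9.35 against 2.99 to 3.98), while Cdh15 was higher (0.627 to 7.69 against 8.28 to 14.1). Cdh8 (chromosome 8, 99024471 to 99417666) had 2731, 2455 and 2615 normalized counts in young and 1373 and 1579 in aged libraries. Both aged libraries lay well under the young ones, at 1476 ± 146 (SD, n = 2) against 2600 ± 138 (n = 3), from 1389 to 2947 reads. The log2 fold change was −0.82 (SE 0.26) with an adjusted p of 0.502 in limma, 0.582 in edgeR and 0.0285 in DESeq2. Leaving out single libraries moved it only between −0.92 and −0.72.

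Cdh18 was read at 646, 233 and 409 in young and 153 and 128 in aged libraries, with a log2 fold change of −1.49 (SE 0.47, adjusted p = 0.502 in limma). Cdh4, known as R-cadherin, was at 112, 137 and 251 against 448 and 328, with a log2 fold change of 1.28 (SE 0.47, adjusted p = 0.546 in limma). Cdh20 had 60.1, 59.4 and 120 in young and 178 and 175 in aged libraries (1.22, SE 0.58 as log2 fold change). Cdh13, the cadherin without a cytoplasmic tail that is held by a lipid anchor, overlapped, at 1044, 1451 and 959 in young and 1320 and 2369 in aged libraries, as did Cdh12 (754, 525 and 650 against 571 and 284) and Cdh11 (1031, 1292 and 1498 against 862 and 1180).

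Other measures differed between the same libraries. Markers of dentate granule cells had log2 fold changes above 0 in 6 of 6 genes, 1 of them with an unadjusted p of 0.05 or less in limma, and a summed normalized count of 2950 to 3942 in young and 4063 to 7223 in aged libraries, and ribosomal protein genes had them above 0 in 70 of 75, with sums of 18880 to 25770 and 29833 to 31671. Oligodendrocyte markers had fold changes below 0 in 7 of 8 genes, with sums of 3162 to 6997 and 3283 to 4375 that overlapped. Their part in the differences of the members was not tested.

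Between control libraries and libraries labelled Ftl1 OE, 0 of the 86 members tested passed an adjusted p of 0.05 in limma, as did 0 (0%) of 14099 genes. The quasi-likelihood test of edgeR and DESeq2 on the tested genes called 0 members too, and DESeq2 called 0.645% of all genes. When DESeq2 was fitted to the whole table before the filter, which was chosen after seeing the data, it called 1 member, Pcdhga3. The paper's own DESeq2 analysis of the same libraries also lists Pcdhga3 among the increased genes. At an unadjusted p of 0.05 or less in limma, 10 members were higher and 0 lower in the libraries labelled Ftl1 OE, beside 3.6% and 3.66% of all genes. Of these 10 members, 8 were clustered genes.

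The clustered genes leaned to higher values in the libraries labelled Ftl1 OE. Fold changes lay above 0 for 47 of 57, with a median log2 fold change of 0.95, against 17 of 29 other members with a median of 0.21. Over all genes tested, 57.4% lay above 0 and the median was 0.095. Within the clusters, Pcdhb stood out with 19 of 20 genes above 0 and a median of 1.89, ahead of Pcdha with 12 of 15 (0.74) and Pcdhg with 16 of 22 (0.55). On the recovered reads the clustered median was smaller, at 0.40 in edgeR and 0.37 in DESeq2, with 40 of 57 above 0, and Pcdhb stayed at 19 of 20 with medians of 0.96 and 0.95. All libraries were kept in these fits, among them control replicate 3 with 16 of 20 Pcdhb genes at 0 and control replicate 5 with 9.

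In a few libraries many clustered genes, above all of Pcdha and Pcdhb, had no read at all. Of the 57 clustered genes tested, 28 (49.1%) had 0 reads in control replicate 3, 21 (36.8%) in control replicate 5 and 14 (24.6%) in Ftl1 OE replicate 5, and 0 to 8 in each of the others. By cluster, 9 of 15 Pcdha, 16 of 20 Pcdhb and 3 of 22 Pcdhg genes were at 0 in control replicate 3. The numbers were 8, 9 and 4 in control replicate 5 and 8, 5 and 1 in Ftl1 OE replicate 5. Over all genes tested, 15.1%, 8.33% and 8.72% were at 0 in these 3 libraries. Among genes with a mean of 50 to 500, 41.5% of the clustered and 12.1% of all genes were at 0 in control replicate 3, and 31.7% and 4.12% in control replicate 5. At least 1 library was at 0 for 38 of 57 clustered genes (66.7%), against 22.5% of all genes tested. It was so for 86.7% of Pcdha, 85% of Pcdhb and 36.4% of Pcdhg genes, and for 31.0% of other members. Without the 3 libraries, a setting chosen after seeing the data, 36 of 57 clustered genes lay above 0 with a median of 0.39, and 12 of 29 other members with a median of −0.13, beside −0.024 over all genes.

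**Figure D3:**
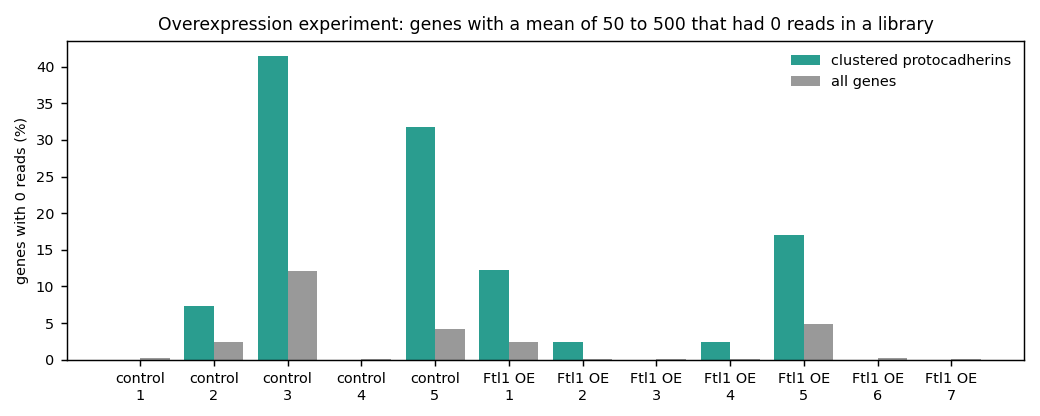
Share of genes (%) with 0 reads in each library of the overexpression experiment, among genes with a mean normalized count of 50 to 500, for the 41 clustered protocadherins (green) and for all genes of that level (grey). Control replicates 3 and 5 and Ftl1 OE replicate 5 hold the tallest green bars, at 41.5%, 31.7% and 17.1%.

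Among genes with a mean of 50 to 500, clustered genes also varied more between libraries of a group than all genes did. The median coefficient of variation within groups was 74.3% against 50.1% in the overexpression and 49% against 34% in the aging experiment. Other members of that range lay above all genes too, at 55.7% and 42.5%, and Pcdhg genes were at 55.9% and 40.6%. The clustered genes of that range had lower counts, with a median of 133 against 200 in the overexpression and 169 against 197 in the aging experiment. The part of this in the spread was not tested. Pcdha and Pcdhb genes tended to be high or low together across the 12 libraries, with a median Pearson r over pairs of genes of 0.24 within Pcdha, 0.30 within Pcdhb and 0.26 between them, against 0.03 within Pcdhg and 0.003 in an evenly spaced sample of all genes tested. This was not particular to them, since it was 0.16 among the other members, 0.19 between these and Pcdha and 0.23 between these and Pcdhb. Without the 3 libraries the medians were −0.04, −0.05 and −0.002 for Pcdha, Pcdhb and between them, 0.10 within Pcdhg and 0.15 among the other members. These pairs share libraries and, within Pcdha and Pcdhg, exons.

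In sums, the Pcdhb genes had 183, 516, 1271, 1799 and 2267 normalized counts in the control and 1691 to 2399 (median 2013) in the libraries labelled Ftl1 OE. The top controls thus lay within the range of the labelled libraries and 3 controls lay below it. The sums of 183 and 516 were those of control replicates 3 and 5, the controls with most clustered genes at 0. The summed Pcdhg count was 7702 to 10723 in control and 7753 to 14525 in labelled libraries, and the Pcdha count 1346 to 2877 against 1117 to 2180.

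Pcdhb3 (chromosome 18, 37300799 to 37304585) was the only member whose groups did not overlap, beside 0.17% of all genes that were higher without overlap. It had 0, 0, 15.4, 41.3 and 50.4 normalized counts in control libraries and 53.9 to 208 (median 75.4) in the 7 libraries labelled Ftl1 OE. The highest control was 50.4 and the lowest labelled library 53.9, so that the groups touched. The log2 fold change was 3.54 (SE 1.05, adjusted p = 0.499 in limma), with an exact permutation p of 0.00126, the smallest that 5 libraries against 7 allow and not adjusted for the genes tested. Without the 3 libraries rich in zeros it was 1.40.

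Pcdhb12 was at 0, 4.64, 33.7, 92.2 and 138 in control and 20.3 to 269 (median 189) in labelled libraries, with a log2 fold change of 2.96 (SE 1.09) that was 0.81 without the 3 libraries. Pcdhb10 was at 0, 0, 17.6, 29 and 53.6 against 19.7 to 245 (median 70.1), and Pcdha6 at 0, 0, 0, 5.51 and 55.3 against 7.52 to 107 (median 45). Their log2 fold changes were 3.18 (SE 1.08) for Pcdhb10 and 3.63 (SE 1.14) for Pcdha6, and 2.54 and 2.26 without the 3 libraries.

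Pcdhga3, of the A group of Pcdhg genes, had the smallest p of all members and no library at 0. It was read at 64.3, 103, 115, 123 and 192 normalized counts in control libraries and at 175 to 391 (median 329) in the libraries labelled Ftl1 OE. Only the highest control reached above the lowest labelled library. At 119 ± 46.3 (SD, n = 5) against 307 ± 70.3 (n = 7), the log2 fold change was 1.40 (SE 0.36), with an adjusted p of 0.499 in limma, 0.399 in edgeR and 0.0109 in DESeq2 on every gene, and an exact permutation p of 0.00253. It held between 1.20 and 1.59 without single libraries and was 1.44 without the 3 libraries rich in zeros. In the aging experiment, Pcdhga3 lay at 93.3, 205 and 248 in young and 121 and 169 in aged libraries, with overlap.

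Pcdhga5 was at 43, 98.7, 163, 230 and 311 in control and 197 to 1124 (median 383) in labelled libraries, and its log2 fold change was 1.46 (SE 0.51, adjusted p = 0.546 in limma). Pcdhgc5 and Pcdhgc3, the most abundant clustered genes, overlapped between the groups. Pcdhgc5 was at 1743 to 3747 (median 3159) in control and 1764 to 5240 (median 3892) in labelled libraries, with a log2 fold change of 0.28 (SE 0.26), and Pcdhgc3 at 395 to 1338 (median 652) against 273 to 1593 (median 932), with one of 0.30 (SE 0.41).

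Among the non-clustered protocadherins, Pcdh8, which is induced by activity and acts at synapses, was at 1358, 1743, 2484, 3077 and 3958 normalized counts in control and 2873 to 3861 (median 3749) in labelled libraries. Its log2 fold change was 0.56 (SE 0.23, adjusted p = 0.636 in limma) and 0.17 without the 3 libraries. Pcdh9 overlapped, at 2534 to 6845 (median 3021) against 2756 to 6881 (median 4352). Its log2 fold change of 0.26 (SE 0.26) was −0.13 without the 3 libraries. Pcdh18 and Pcdh15 had 0 reads in 2 and 3 of the 5 control libraries, and log2 fold changes of 2.78 (SE 1.17) and 2.20 (SE 1.52).

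Of the 18 cadherins tested, 0 passed an unadjusted p of 0.05 in limma. Cdh4 came nearest, at 0, 70.7, 98.7, 141 and 198 in control and 76.9 to 402 (median 204) in labelled libraries, with a log2 fold change of 2.17 (SE 1.03, adjusted p = 0.672) that was 0.59 without the 3 libraries. Cdh22 had its highest value, 1834, in control replicate 3 and ran from 152 to 911 in the other controls, against 265 to 488 (median 341) in labelled libraries. Its log2 fold change was −0.56 (SE 0.47) and turned to 0.22 without the 3 libraries. Cdh1, the epithelial E-cadherin, had reads in 1 of 5 control and 5 of 7 labelled libraries, with at most 44 reads. Cdh15 (0.98, SE 0.54), Cdh20 (1.36, SE 1.41), Cdh7 (0.84, SE 0.91), Cdh8 (0.05, SE 0.31), Cdh11 (−0.04, SE 0.26), Cdh13 (−0.14, SE 0.30) and Cdh23 (−0.40, SE 1.33), given as log2 fold change, had unadjusted p-values above 0.05 in limma.

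**Figure D4:**
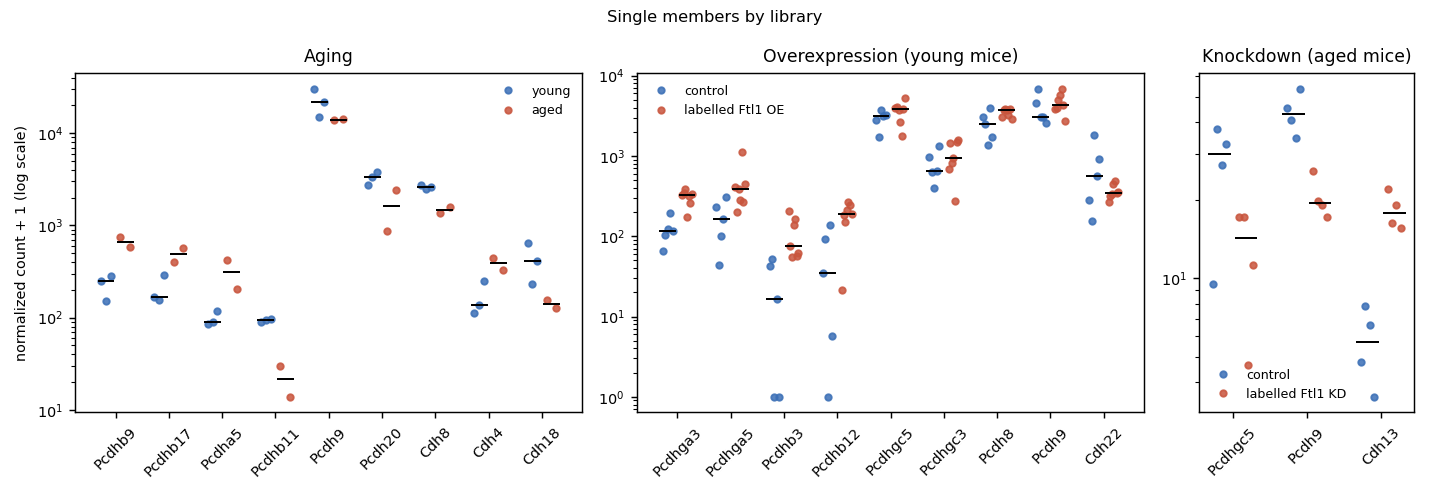
Normalized count + 1 (log scale) of single members in every library. Points are libraries, blue for young or control and red for aged or labelled libraries, and black lines are group medians. With age, the groups are apart for every gene shown, though by little for Pcdh9. In the overexpression experiment they are apart for Pcdhb3 alone, by little, and nearly apart for Pcdhga3. In the knockdown experiment they are apart for Pcdh9 and Cdh13.

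Other lists moved in the overexpression libraries as well. Ribosomal protein genes had log2 fold changes below 0 in 71 of 74 genes, with sums of 92544 to 270749 in control and 77958 to 113375 in labelled libraries. Microglial markers had sums of 3111 to 7081 and 1889 to 3282, with 6 of 9 genes below 0. Choroid plexus markers ran from 430 to 110736 among the control libraries alone. Their part in the differences of the members was not tested.

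In the knockdown experiment, a cadherin was called higher and a protocadherin lower, both on few reads. Only Cdh13, Pcdh9 and Pcdhgc5 of the 94 members reached a mean of 10 at this depth, Cdh13 through the labelled libraries alone. At an adjusted p of 0.05 in limma, 1 of the 3 was higher and 1 lower in the libraries labelled Ftl1 KD, where 10.5% of 1460 genes were called higher and 13.7% lower. In all, 24.2% of genes were called in limma, 28.8% in edgeR and 23.8% in DESeq2, and 2 members are too few to set apart from the rest. Centring each library on its median moved the median of all genes from −0.012 to 0.098 and the split of calls from 154 higher and 200 lower to 197 and 161, with the same 2 members called.

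Cdh13 (chromosome 8, 118140017 to 119324929), the lipid-anchored cadherin that binds adiponectin, had 3.78, 6.86, 5.62 and 2.51 normalized counts in control libraries against 21.1, 15.3, 18.2 and 14.7 under the Ftl1 KD label. These stand for 3 to 17 reads in control and 10 to 22 reads in labelled libraries, and the groups did not overlap. Of all genes tested, 11.8% were higher and 11.9% lower without overlap. Every control library lay under the limit of 10 and every labelled one above it. Cdh13 thus passed the filter on the mean through the labelled libraries alone. With no limit on the mean limma called it too, on the same few reads. The log2 fold change was 1.74 (SE 0.49, adjusted p = 0.0102 in limma, 0.00192 in edgeR and 0.00205 in DESeq2), with an exact permutation p of 0.0286, the smallest that 4 against 4 allow. Any gene whose groups do not overlap reaches this permutation p. In RPM over reads other than Rn45s, a scale chosen after seeing the data that leaves out the 45S ribosomal RNA, which took 31.9% to 55.3% of reads in control and 30.3% to 34.5% in labelled libraries, Cdh13 was at 37.2 to 106 and 240 to 346. Without Ftl1 KD replicate 1 the adjusted p was 0.0508 in limma and the call was lost, while the log2 fold change ran from 1.53 to 1.92 as single libraries were left out.

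Pcdh9 had 44.4, 39.5, 33.7 and 52.7 normalized counts in control libraries against 24.9, 18.9, 18.2 and 16.2 under the Ftl1 KD label, from 10 to 126 reads. The groups did not overlap, beside 11.9% of all genes tested that were lower without overlap. The log2 fold change was −1.08 (SE 0.28, adjusted p = 0.00545 in limma, 0.00508 in edgeR and 0.00658 in DESeq2), with an exact permutation p of 0.0286, and ran from −1.20 to −0.98 without single libraries. In RPM over reads other than Rn45s it was at 561 to 781 in control and 264 to 409 in labelled libraries, without overlap, while over all reads the groups overlapped, at 264 to 455 and 184 to 268.

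Pcdhgc5 was at 8.49, 36.7, 26.2 and 31.8 in control and 16.3, 16.2, 3.64 and 10.3 in labelled libraries, and control replicate 1 lay among the labelled libraries. Its log2 fold change was −1.09 (SE 0.43), with an adjusted p of 0.0632 in limma, 0.0417 in edgeR and 0.0756 in DESeq2. Without control replicate 1 it was −1.53 with an adjusted p of 0.00959 in limma, and with a pseudocount of 5 it passed at 0.0397.

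Summed, the clustered genes had 86.8 to 103 normalized counts in control and 69.2 to 85.7 in labelled libraries. In RPM over reads other than Rn45s the sums were 1306 to 1536 and 1171 to 1410, with the means in the same order. Over all reads, Rn45s included, the order of the means turned, with 686 to 890 in control and 777 to 981 in labelled libraries. With no limit on the mean, 81 members were tested and the same 2 were called in limma. RNAs kept in the nucleus were lower in the libraries labelled Ftl1 KD, with sums over 7 such RNAs of 619 to 1235 in control and 219 to 322 in labelled libraries, and 4 of the 4 tested were called lower. Oligodendrocyte markers had sums of 39.7 to 96.8 and 10.9 to 24.4, ribosomal protein genes of 673 to 953 and 1013 to 1106. Markers of neuron types were called too, with C1ql2 of dentate granule cells (−1.49, SE 0.31), Fibcd1 of CA1 (−1.47, SE 0.34) and Slc17a7 of excitatory neurons (−1.35, SE 0.46) lower and Gad1 of inhibitory neurons (1.49, SE 0.36) higher as log2 fold change in limma. Cck, another interneuron marker, was called lower, and of 4 such markers tested 2 were higher and 2 lower. Stmn2, a marker of neurons of any type, was called higher. The astrocyte gene Slc1a3 was called higher as well (2.05, SE 0.39), while of 3 astrocyte markers tested 2 were higher and 1 lower. Of 3 CA1 markers tested, 1 was higher and 2 lower, and of 5 markers on the list of neurons 3 were higher and 2 lower. C1ql2 was the only granule cell marker tested. The part of these lists in the change of Cdh13 and Pcdh9 was not tested.

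Genes that act on or with the members were read from lists by role. Of CTCF, cohesin and other regulators of the clustered locus, 0 of 19 in the aging and 0 of 18 in the overexpression experiment passed in limma and edgeR, and DESeq2 called 1 with age, Trim28 (adjusted p = 0.0222). The smallest p values were those of Trim28 with age, at 595 ± 35.3 in young (SD, n = 3) and 1287 ± 286 in aged libraries (n = 2) with a log2 fold change of 1.09 (SE 0.29, adjusted p = 0.441), and of Setdb1, at 464 ± 279 in control (n = 5) and 711 ± 136 in labelled libraries (n = 7) with one of 0.81 (SE 0.34, adjusted p = 0.638). Trim28 and Setdb1 work together in placing repressive histone marks. Ctcf itself was at 333 ± 77.3 in young and 434 ± 15.3 in aged libraries.

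Catenins, which join classical cadherins to actin, passed in 0 of 8 with age and 0 of 8 in the overexpression experiment, where Ctnna2, the neuronal alpha-catenin, had the smallest p (0.84, SE 0.30 as log2 fold change, adjusted p = 0.549 in limma). The intracellular partners of the clustered proteins passed in 0 of 13 in both experiments, and the enzymes that cut cadherins in 0 of 8 in both. In the knockdown experiment, 1 of 4 partners was called in limma, the GTPase Rac1, which rose from 13.7 ± 2.29 to 28.2 ± 4.73 (log2 fold change 0.99, adjusted p = 0.0175 in limma). Of 5 other members of the superfamily tested there, 2 fell, Celsr3, which steers axons, by 1.51 on the log2 scale (SE 0.42, adjusted p = 0.00967 in limma), and Clstn1, a calsyntenin of transport vesicles and synapses, by 1.30 (SE 0.25, adjusted p = 0.000541). With age, the smallest p in that list was that of Dchs1, at 171 ± 40.7 in young and 22.5 ± 15 in aged libraries (log2 fold change −3.01, SE 0.70, adjusted p = 0.441 in limma, 0.0120 in DESeq2), where limma and edgeR called 0 of 14 and DESeq2 called Dchs1 alone.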

How the data were processed

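Per the paper and the submitters' processing notes, reads were aligned by STAR (mm10), RSEM gave the gene counts, and DESeq2 scaled them. For each experiment the authors deposited 1 table, whose values are DESeq2-normalized counts, a signal per gene and library, and each table was normalized on its own. Columns with the authors' own means, fold changes, test statistics and p-values were not used, and 0 library columns were left out. Dividing by the smallest step of each library gave whole reads for 100% of genes, within 0.01 reads, so the RSEM estimates had been rounded.

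Groups came from the sample labels, ages from the paper. The main test was limma 3.58.1 in R 4.3.3 on log2(normalized count + 1), with limma's mean-variance trend and the group as the only term, over genes with a mean of at least 10. A call needed an adjusted p of 0.05 or less and, for aging, a log2 fold change of 0.5 or more in size. Alternatives were the quasi-likelihood test of edgeR 4.0.16 and DESeq2 1.42.0 on the recovered reads, pseudocounts of 0.5 and 5, other filters and scalings, a replicate block and leaving out each library. The models were tested on simulated data. Exact permutation tests compared the absolute difference of means and were two-sided. Positions came from RefSeq (GRCm38.p6, the build of mm10) and exons from GENCODE M21, which held 91 of the 94 members. Levels per kilobase used the longest transcript.

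Named were, in each experiment, the 6 clustered genes, 4 non-clustered protocadherins and 6 cadherins with the smallest p, called or non-overlapping members where these were at most 12, and the 2 most abundant of each class; the named genes of a list were those called or the one with the smallest p. Ctcf, Pcdhga3 and Pcdhb22 with age, and the markers named in the knockdown experiment were chosen after their values were seen. Members and lists were chosen with earlier results of these data known. The paper gives the aging libraries as 3 young and 2 aged mice, and the labels do not tie the viral libraries to mice, so p-values measure the spread between libraries. The sources differ on the library kit: the paper's methods describe Smart-seq2, the labels a strand-specific kit with polyA enrichment.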

Additional observations from a re-analysis of the deposited data

Results flagged for a closer look

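In 9 of 70 groups of 4 to 10 libraries, 1 library stood apart from the rest, with a gap to the nearest one that was large beside the range of the group. For independent groups of normally distributed values the rule passes about 1 in 20, or 3.5 of 70. The counts here hold many zeros and the groups share libraries, so that this share cannot serve as a test. Ftl1 OE replicate 5, which had 14 of 57 clustered genes at 0, stood highest for 3 members: Pcdhga5 at 1124 (next 447), Pcdhb10 at 245 (next 93.8) and Pcdh18 at 142 (next 55). Other labelled libraries stood highest for Pcdh15, with 253 in Ftl1 OE replicate 4 (next 57), and for Cdh7, with 84.9 in replicate 1 (next 33). Control libraries did for Pcdha6, with 55.3 in replicate 2 (next 5.51), and for Cdh1, with 8.82 in replicate 4 where the other controls were at 0. In sums, the non-clustered protocadherins were lowest in Ftl1 OE replicate 7, at 10643 (next 13972), and the Pcdhb genes were highest in knockdown control replicate 1, at 23.6 (next 11.3).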

How the results depend on the processing

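Of 46 single results of named members, 37 kept their direction in every alternative and 9 did not. With age, Cdh23 turned to −1.24 in edgeR, DESeq2 and DESeq2 on every gene, and ran from −1.29 to 2.34 without single libraries, where Pcdhgc5 ran from −0.054 to 0.97. In the overexpression experiment, Cdh8 turned to −0.048 with median centring, −0.11 in edgeR, −0.13 in DESeq2 on either gene set, −0.42 without the 3 libraries rich in zeros and ran from −0.15 to 0.36 without single libraries. Without the 3 libraries, Cdh11 was 0.011, Cdh22 0.22, Cdh7 −0.053 and Pcdh9 −0.13, and without single libraries Cdh11 ran from −0.18 to 0.081, Cdh13 from −0.42 to 0.079 and Cdh23 from −1.33 to 0.16. Members called moved from 0 to 2 with age in DESeq2 on either gene set, and from 0 to 1 in the overexpression experiment in DESeq2 on every gene, and in the knockdown experiment from 2 to 3, with Pcdhgc5 added, in edgeR and with a pseudocount of 5. The log2 ratio of the summed clustered genes in the knockdown experiment was −0.29 and turned to 0.19 in RPM over all reads, and was −0.20 over reads other than Rn45s (both chosen after seeing the data). Without single libraries, the aging medians ran from 0.15 to 0.59 (clustered) and −0.25 to 0.39 (other members), the overexpression medians from 0.51 to 1.27 and −0.12 to 0.51, and the knockdown calls from 1 to 3. With no limit on the mean, the knockdown medians were −0.013 (clustered) and −0.38 (other members), where the limit of 10 left 1 and 2 genes; a limit of 50 left 0 members and gave no value. The cause of the other moves was not tested.

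In the knockdown experiment, libraries that share a number deviated no more alike than others (r of −0.034, −0.020 and −0.052), so that the numbers do not show a pairing there. In the aging experiment r was −0.054 and 0.024. The deviations of 2 aged libraries from their mean mirror each other, so that the check cannot decide on a pairing there. With a replicate block, knockdown calls went from 2 to 1, since Pcdh9 kept −1.08 at an adjusted p of 0.0524 in limma, the knockdown medians were −0.44 and 0.40, and the aging medians 0.29 and 0.13 with 0 calls. The 3 members tested in the knockdown experiment had 2 to 126 reads in a library, which limits their precision.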

Other observations

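The order of the members differed between the untreated young and the control virus libraries, which were normalized separately and are set side by side only in RPM over reads other than Rn45s, a scale chosen after seeing the data. Rn45s, the 45S ribosomal RNA, took 31.9% to 55.3% of reads in the knockdown controls, 2.63% to 4.0% in young wild-type libraries and 1.66% to 4.98% in overexpression controls. Pcdh9 was at 2779 ± 996 RPM in young wild-type libraries (SD, n = 3), at 307 ± 165 in overexpression controls (n = 5) and at 655 ± 94.5 in knockdown controls (n = 4). Pcdh8 was at 57.9 ± 1.77, 195 ± 95.1 and 40.2 ± 16.5, and Pcdhgc5 at 225 ± 69.8, 215 ± 41 and 401 ± 190. Pcdhgc3 was at 5.81 ± 6.44 in young wild-type libraries and 60.2 ± 26.9 in overexpression controls. Summed, the Pcdhg genes had 667 ± 25, 695 ± 75.7 and 990.3 ± 162 RPM and the Pcdha genes 394 ± 70.6, 143 ± 60 and 258 ± 63.6. Experiment, virus, age and library preparation cannot be told apart here, and no test was run across tables.

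In the knockdown libraries without a limit on the mean, Pcdhgc3 was read at 12.9 ± 13.5 RPM in control and 92.2 ± 47.6 in libraries labelled Ftl1 KD (n = 4 each), from 0 to 5 and 2 to 7 reads a library. Pcdhgc5 was at 401 ± 190 and 191 ± 98.1 RPM in the same groups. Pcdhgc3 was named after its values were seen.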
